A study of Mus musculus with 10 samples.

Results

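The genes described here were 9 listed genes of the primitive and visceral endoderm, the extraembryonic endoderm lineages of the early mouse embryo. They comprised the transcription factors Gata4, Gata6, Sox17, Sox7 and Hnf4a, the receptor Pdgfra, and Dab2, Cubn and Amn, whose products take part in endocytosis. All 9 were found by symbol among the 30677 genes of the count table. They were measured by polyA RNA-seq in TNGA cells, mouse ES cells with a GFP reporter in a single Nanog allele, grown in serum and LIF. The cells had been exposed for 48 hours to 100 μM MB-3, an inhibitor of the histone acetyltransferase Kat2a, or to the vehicle DMSO alone, with 0.1% DMSO in all cultures. Each group had 3 libraries, lettered A, B and C. The samples were bulk cultures of 1 reporter line, with no sort stated for the RNA, so a smaller number of cells of a type and less RNA per cell cannot be told apart.

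In the blastocyst, cells of the inner cell mass become either epiblast, marked by Nanog, or primitive endoderm, marked by Gata6. Signalling by Fgf4 through its receptors and the Ras and MAP kinase pathway favours the endoderm fate, in which Gata6, Sox17, Gata4 and Sox7 are switched on in sequence. The primitive endoderm then gives rise to the parietal endoderm, which lays down a thick basement membrane, and to the visceral endoderm, which takes up and exports nutrients. ES cells in serum and LIF are epiblast-like, and extraembryonic endoderm genes are known to be transcribed in a minor part of such cultures.

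The total count was 48144367, 51137896 and 46863700 in DMSO libraries A, B and C and 49334434, 44985772 and 42270312 in MB-3 libraries A, B and C. At this depth 1 CPM, the unit in which counts are scaled to library size, stood for 42.9 to 50.2 reads. Together the 9 genes received 445 to 675 counts per library, and 65.7% of these came from Dab2. Sox17 had fewer than 10 counts in every library, and Amn and Sox7 had fewer than 10 in 3 libraries and in 1 library, respectively. Gata6, Sox17, Sox7, Pdgfra, Cubn and Amn, 6 of the 9, stayed under 1 CPM in every library, and Gata4 and Hnf4a reached at most 1.02 and 1.05 CPM.

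The genes lay far below the pluripotency genes of the same libraries. Per kb of exon, the level in DMSO was 1.08 CPM for Dab2, 0.212 for Gata4, 0.193 for Hnf4a, 0.134 for Amn, 0.0806 for Sox7, 0.0747 for Gata6, 0.0655 for Pdgfra, 0.0473 for Cubn and 0.0144 for Sox17. Pou5f1, which encodes the pluripotency factor Oct4, stood at 299 CPM per kb, and Nanog at 118. The lowest of the 8 pluripotency genes examined were Tfcp2l1 at 27.2 and Klf4 at 26.8 CPM per kb. In this order of the DMSO levels the libraries of Dab2 did not overlap with those of Gata4, those of Hnf4a did not overlap with those of Amn, and those of Cubn did not overlap with those of Sox17. The other neighbours in the order overlapped. The levels per kb in MB-3 were 0.944 for Dab2, 0.196 for Hnf4a, 0.179 for Gata4, 0.0926 for Amn, 0.0785 for Sox7, 0.0599 for Gata6, 0.0509 for Pdgfra, 0.0330 for Cubn and 0.0144 for Sox17. The defining transcription factors of extraembryonic endoderm were thus measured at or below 0.212 CPM per kb in both groups, beside pluripotency genes at 26.8 CPM per kb and above in DMSO.

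**Figure D1:**
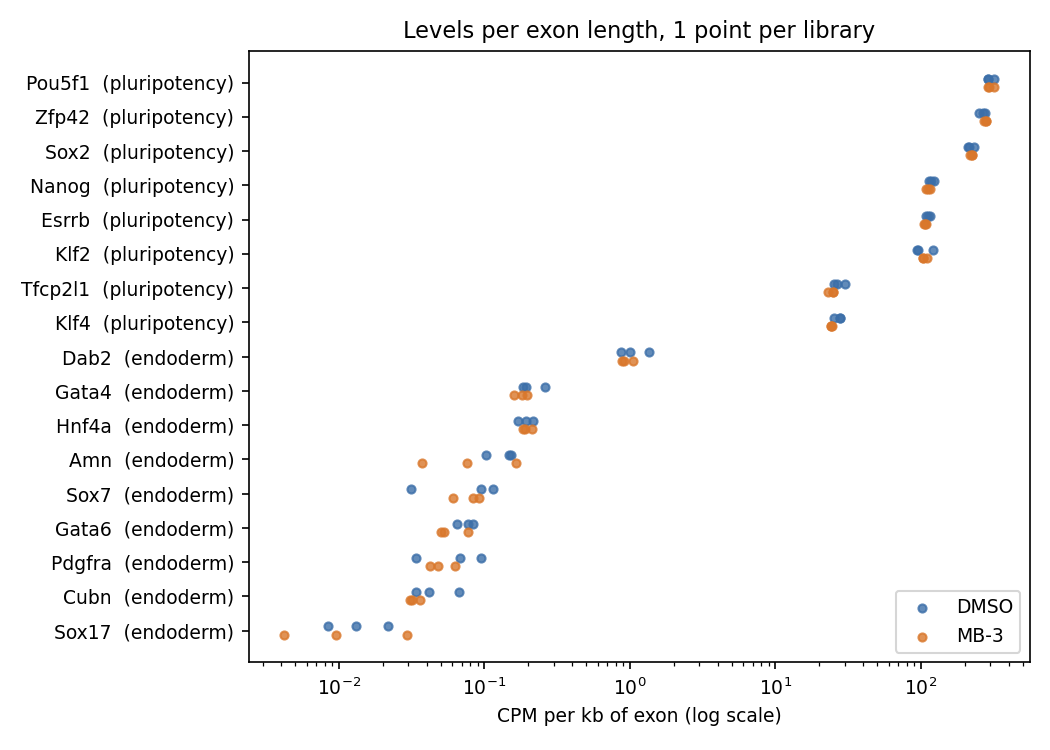
Level of each endoderm gene and of 8 pluripotency genes in CPM per kb of exon (log scale), with 1 point per library, DMSO in blue and MB-3 in orange. Every endoderm gene sits below every pluripotency gene in all 6 libraries, and Dab2 is the highest of the endoderm genes.

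MB-3 was compared with DMSO to ask whether Kat2a inhibition altered these genes. None of the genes tested was called, and the DMSO and MB-3 libraries overlapped for each of the 9. Enough counts for a test were found for 8 genes, of which 7 had a negative and 1 a positive log2 fold change, with a median of -0.28 against -0.00 over all genes tested. In edgeR's quasi-likelihood test 0 of the 8 were called at an adjusted p of 0.05, 0 had an unadjusted p under 0.05, and limma-voom also called 0. DESeq2 called 0 of the 5 to which it gave an adjusted p, with none given for Gata6, Sox7 and Amn, and 0 of the 8 had an unadjusted p under 0.05 there. Over all 20027 genes tested the edgeR fit with treatment only called 41, which is 0.205%, and 10.9% had an unadjusted p under 0.05. With the replicate letter as a block, which relates each MB-3 library to the DMSO library of the same letter, 1425 genes or 7.12% were called, and again 0 of the 8. In that fit 0 of the 8 had an unadjusted p under 0.05, against 20.1% of all genes tested. The share of all tested genes whose groups did not overlap was 15.6%.

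Among the transcription factors, Gata4 and Gata6 encode zinc finger proteins that bind GATA motifs. Gata4 (ENSMUSG00000021944, GRCm38 chromosome 14 from 63198922 to 63271692, minus strand) was measured at 0.748, 1.02 and 0.713 CPM in DMSO libraries A, B and C and at 0.623, 0.706 and 0.770 CPM in MB-3 libraries A, B and C. DMSO library B was the highest and MB-3 library A the lowest, and the other 4 were interleaved. The means were 0.826 ± 0.166 and 0.700 ± 0.0736 CPM (SD, n = 3), with a log2 fold change of -0.24 (95% interval -0.79 to 0.30, edgeR adjusted p = 0.768). Gata6 (ENSMUSG00000005836) was measured at 0.540, 0.498 and 0.420 CPM in DMSO and at 0.342, 0.501 and 0.327 CPM in MB-3, from 14 to 26 counts per library. MB-3 libraries A and C lay below all DMSO libraries, while MB-3 library B lay between DMSO libraries A and B. Its log2 fold change was -0.32 (95% interval -0.99 to 0.35, edgeR adjusted p = 0.747). An exon of 1010001N08Rik lies on the other strand of Gata6, and because the use of strand in counting is not stated, its reads are not certain to be Gata6.

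Sox17 and Sox7 encode SoxF factors that act with and after Gata6 in the primitive endoderm. Sox17 (ENSMUSG00000025902, GRCm38 chromosome 1 from 4490931 to 4497354, minus strand) had 5, 2 and 3 counts in DMSO and 1, 2 and 6 counts in MB-3. With 10 counts in total in DMSO and 9 in MB-3, it was left out by the filter on low counts. In the edgeR fit without that filter all 9 genes were tested and 0 were called. Counts this low were too few to judge a small difference. An exon of Gm37587 lies on its other strand. Sox7 (ENSMUSG00000063060, GRCm38 chromosome 14 from 63943673 to 63950732, plus strand) was measured at 0.104, 0.379 and 0.315 CPM in DMSO and at 0.201, 0.273 and 0.303 CPM in MB-3. DMSO held both the lowest and the 2 highest of these 6 values. Its log2 fold change was -0.05 (95% interval -1.03 to 0.93, edgeR adjusted p = 0.978), and 0.01 with the letter as a block.

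Hnf4a (ENSMUSG00000017950, GRCm38 chromosome 2 from 163506808 to 163572910, plus strand) encodes a nuclear receptor that drives the metabolic genes of the visceral endoderm and liver. It was measured at 0.935, 0.818 and 1.05 CPM in DMSO and at 0.924, 0.888 and 1.03 CPM in MB-3. The 3 MB-3 values lay inside the range of the DMSO values. Its log2 fold change was 0.02 (95% interval -0.46 to 0.49, edgeR adjusted p = 0.983). Further transcription factors of the lineage examined were Foxa2, Gata5 and Foxq1. Of these only Foxq1 had enough counts to be tested, with a log2 fold change of 0.23 (95% interval -0.74 to 1.20) and no call in either fit. Foxa2, the most abundant of these (here and in each list, the gene with the highest mean CPM in DMSO, not scaled by length), was measured at 0.353, 0.0997 and 0.420 CPM in DMSO and at 0.141, 0.114 and 0.140 CPM in MB-3. All 3 MB-3 libraries lay above DMSO library B and below the other DMSO libraries, but the counts were too few for a test. Gata5 had libraries without a single count.

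Pdgfra (ENSMUSG00000029231, GRCm38 chromosome 5 from 75152292 to 75198215, plus strand) encodes the receptor for PDGF-A, a surface marker of the primitive endoderm. It was measured at 0.686, 0.339 and 0.944 CPM in DMSO and at 0.422, 0.478 and 0.630 CPM in MB-3. The 3 MB-3 libraries lay within the spread of the DMSO libraries, in which C was the highest and B the lowest of all 6. Its log2 fold change was -0.36 (95% interval -1.14 to 0.41, edgeR adjusted p = 0.753). Exons of Gm42802 and Gm42803 lie on its other strand, and Mir7025 overlaps it on the same strand.

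Dab2, Cubn and Amn encode parts of the apical uptake machinery of the visceral endoderm: Cubn encodes the receptor cubilin, Amn the membrane protein amnionless that anchors it, and Dab2 an adaptor that links such receptors to clathrin. Dab2 (ENSMUSG00000022150, GRCm38 chromosome 15 from 6299788 to 6440712, plus strand) had 294 to 475 counts per library and is the gene of the list with the narrowest error. It was measured at 7.37, 6.34 and 9.96 CPM in DMSO and at 6.43, 6.70 and 7.67 CPM in MB-3. DMSO library C was the highest and DMSO library B the lowest of the 6. The means were 7.89 ± 1.87 and 6.93 ± 0.655 CPM (SD, n = 3), with a log2 fold change of -0.19 (95% interval -0.51 to 0.13, edgeR adjusted p = 0.680), and of -0.17 with the letter as a block (edgeR adjusted p = 0.335). Without DMSO library C the value was 0.01. An exon of Gm18888 lies on the other strand.

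Cubn (ENSMUSG00000026726, GRCm38 chromosome 2 from 13276338 to 13491813, minus strand) was measured at 0.997, 0.618 and 0.503 CPM in DMSO and at 0.462, 0.478 and 0.536 CPM in MB-3. MB-3 libraries A and B lay below all DMSO libraries, and MB-3 library C lay between DMSO libraries C and B. Its log2 fold change was -0.52 (95% interval -1.19 to 0.14, edgeR adjusted p = 0.568), and an exon of Gm13270 lies on the other strand. Amn (ENSMUSG00000021278, GRCm38 chromosome 12 from 111271095 to 111276426, plus strand) was measured at 0.270, 0.279 and 0.189 CPM in DMSO and at 0.141, 0.0683 and 0.303 CPM in MB-3, from 3 to 14 counts per library. MB-3 held both the lowest and the highest of these values. Its log2 fold change was -0.54 (95% interval -1.61 to 0.53, edgeR adjusted p = 0.735).

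Lrp2 (GRCm38 chromosome 2 from 69424340 to 69586065, minus strand), which encodes megalin, the large receptor that works with cubilin, stood at 91.0, 66.8 and 108 CPM in DMSO and at 96.7, 77.2 and 100 CPM in MB-3. Its level per kb in DMSO, 5.31 CPM, was above that of Dab2 at 1.08 CPM and of Cubn at 0.0473 CPM. The log2 fold change of Lrp2 was 0.05 (95% interval -0.25 to 0.34, edgeR adjusted p = 0.932), and no call was made in the blocked fit.

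**Figure D2:**
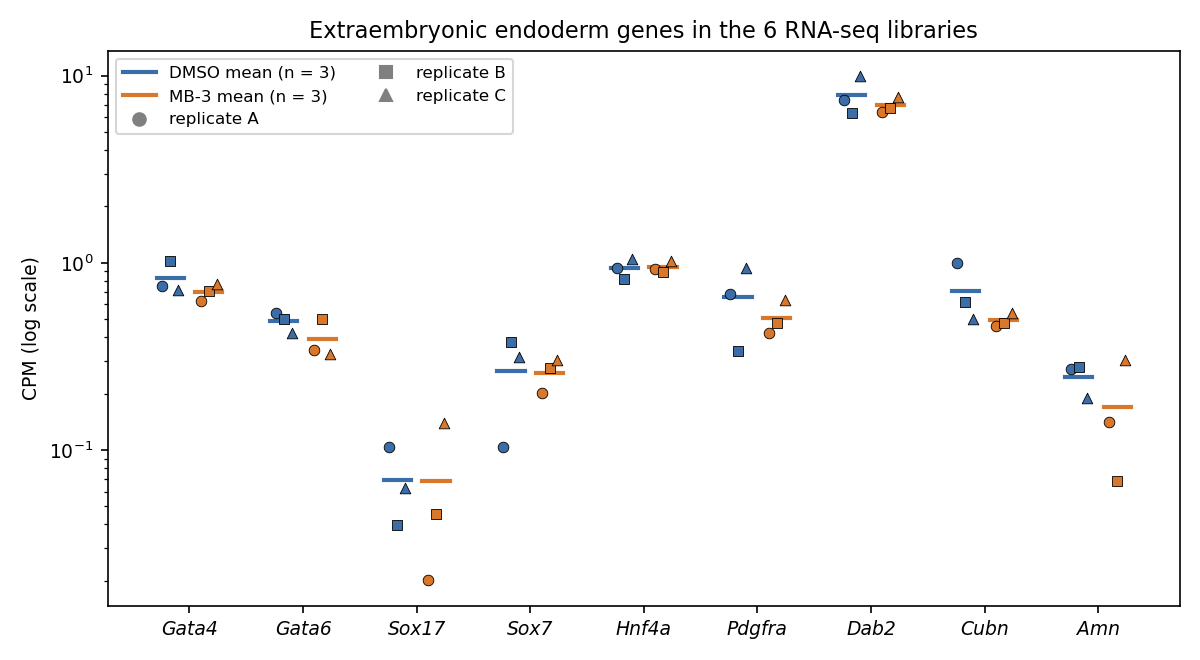
CPM (log scale) of the 9 endoderm genes in each library, with DMSO in blue, MB-3 in orange, a symbol per replicate letter and bars for the group means (n = 3). The DMSO and MB-3 points overlap for all 9 genes, Dab2 lies between 6.34 and 9.96 CPM, and Sox17 rests on 1 to 6 counts per library.

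The width of the intervals sets what could have been seen. For Gata4, Gata6, Hnf4a and Dab2, 4 of the 8 genes, the 95% interval lay within 1 log2 unit of no change in both directions, so that a 2-fold change lay outside it. For Sox7, Pdgfra, Cubn and Amn it reached past -1, and a fall of 1 log2 unit remained within it, while no interval reached past 1. With the letter as a block the interval lay within 1 log2 unit for 5 of the 8, but not for the same genes. The blocked interval of Gata6, -1.01 to 0.36, just reached past -1, and those of Sox7 (-0.84 to 0.85) and Pdgfra (-0.96 to 0.30) no longer did. The error expected from counting alone was 0.06 for Dab2 and 0.34 to 0.39 for Sox7 and Amn on the log2 scale.

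**Figure D3:**
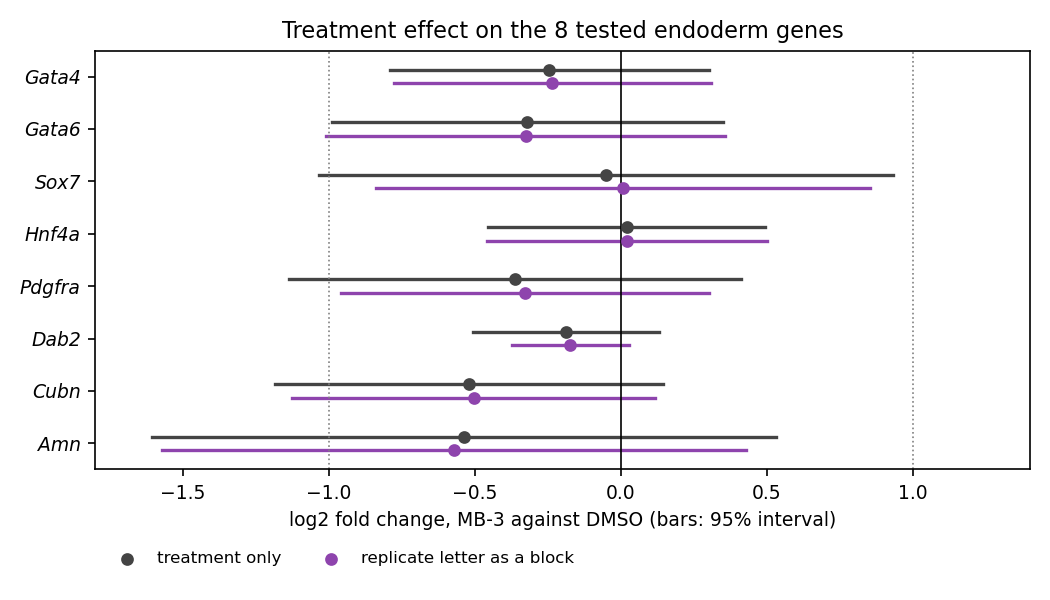
Log2 fold change of MB-3 against DMSO for the 8 tested endoderm genes, with 95% intervals as bars, fitted by treatment only (grey) and with the replicate letter as a block (purple). All intervals include 0, and dotted lines mark a change of 1 log2 unit in either direction.

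The promoters of Dab2 and Hnf4a are shown because Gata4 and Gata6 proteins bind GATA hexamers, and a window of each gene held one. The letters searched were AGATAA with its variant AGATAG, and TGATAA with its variant TGATAG. RefSeq (GRCm38.p6) gave 7 windows of the 250 bases before a start site for 5 of the 9 genes, namely Hnf4a, Pdgfra, Dab2, Cubn and Amn. Both strands were searched, and 2 of the 7 windows held one, against 26.5% of all 32851 windows. The downstream Hnf4a window held none and is not printed. Both windows with a hexamer are printed 5′ to 3′ on the plus strand with the hexamer in capitals, together with the second Dab2 window, which held none.
Dab2 upstream start, chr15:6299539-6299788: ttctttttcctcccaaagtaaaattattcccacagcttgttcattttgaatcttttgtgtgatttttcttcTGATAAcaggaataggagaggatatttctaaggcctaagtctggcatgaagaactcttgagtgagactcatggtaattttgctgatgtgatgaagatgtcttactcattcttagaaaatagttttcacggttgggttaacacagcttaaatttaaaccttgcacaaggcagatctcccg
Dab2 downstream start, chr15:6386498-6386747: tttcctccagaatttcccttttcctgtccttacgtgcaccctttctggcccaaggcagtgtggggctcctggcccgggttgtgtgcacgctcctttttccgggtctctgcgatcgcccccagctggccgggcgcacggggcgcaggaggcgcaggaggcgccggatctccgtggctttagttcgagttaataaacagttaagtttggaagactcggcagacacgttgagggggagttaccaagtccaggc
Hnf4a upstream start, chr2:163506607-163506856: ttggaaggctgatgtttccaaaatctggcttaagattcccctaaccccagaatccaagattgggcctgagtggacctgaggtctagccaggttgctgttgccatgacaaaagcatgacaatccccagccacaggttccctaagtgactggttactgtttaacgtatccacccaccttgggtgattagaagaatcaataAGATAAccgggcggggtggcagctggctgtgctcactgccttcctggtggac

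The 2 Dab2 windows differ in composition. The upstream window holds 2 CpG dinucleotides and 36.8% G and C, and its TGATAA begins 179 bases before the start site. The downstream window holds 17 CpG and 60% G and C, where the median over all windows is 6 CpG. In the Hnf4a window AGATAA begins 52 bases before the start. Counts were deposited per gene, so which Dab2 start was in use was not analysed here, and a hexamer is a match of letters and not a binding site.

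The replicate letters were compared as well, since deviations from the group means correlated between same-letter libraries at 0.115 to 0.287. In the fit with treatment and letter terms, 1570 of the 20027 genes tested, or 7.84%, differed between letters, and of the 8 endoderm genes 1 did, Dab2 (edgeR adjusted p = 0.0325). Over both treatments its mean was 6.90 CPM for letter A, 6.52 for B and 8.82 for C. The call for Dab2 was lost when DMSO library A, B or C was left out (edgeR adjusted p of 0.111, 0.226 and 0.545), and DESeq2 gave an adjusted p of 0.287. Lrp2 differed between letters as well (edgeR adjusted p = 2.36e-06), with B the lowest letter in both groups. Without a treatment term neither Dab2 nor Lrp2 was called for letter (edgeR adjusted p of 0.505 and 0.492). Among all 9 genes DMSO library C was the highest library for Hnf4a, Pdgfra and Dab2, and DMSO libraries A and B and MB-3 library C for 2 each. DMSO library B and MB-3 library A were each the lowest for 3.

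The other genes of the lineage were taken as lists. Apart from that of Lhx1, their edgeR calls were made only with the letter as a block. With treatment only, 0 of 13 genes of the parietal endoderm and basement membrane were called by edgeR, 4 of them with an unadjusted p under 0.05 (10.9% of all genes tested). With the letter as a block 4 were called, all lower in MB-3, against 3.9% of all tested genes called lower. The list had a median log2 fold change of -0.17. Plat, Thbd and Pth1r, of the same list, had blocked log2 fold changes of -0.15, -0.14 and -0.20. They were not called (edgeR adjusted p of 0.789, 0.903 and 0.755), and Thbd had fewer than 10 counts in 2 libraries. Col4a1 and Col4a2 encode the chains of type IV collagen, Serpinh1 the collagen chaperone Hsp47, and Sparc a collagen-binding matrix protein. All 4, like Lamb1, which was not called, were lower in MB-3 in each of the 3 letters, although the groups of all 5 overlapped when letters were ignored.

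Serpinh1 (GRCm38 chromosome 7 from 99345376 to 99353239, minus strand) was measured at 48.9, 33.0 and 75.8 CPM in DMSO libraries A, B and C and at 28.1, 22.2 and 37.3 CPM in MB-3 libraries A, B and C. DMSO library B, the lowest of its group, lay below MB-3 library C, the highest of its own. The log2 fold change was -0.85 with treatment only (edgeR adjusted p = 0.206) and -0.81 with the block (edgeR adjusted p = 6.76e-11). Sparc (GRCm38 chromosome 11 from 55394500 to 55423183, minus strand) was measured at 76.9, 64.2 and 113 CPM in DMSO and at 56.4, 55.4 and 69.0 CPM in MB-3, with a blocked log2 fold change of -0.46 (edgeR adjusted p = 2.98e-06). For both genes C was the highest and B the lowest letter.

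Col4a1 was measured at 17.6, 11.2 and 19.6 CPM in DMSO and at 12.6, 8.58 and 13.8 CPM in MB-3, and Col4a2 at 8.54, 6.18 and 11.0 CPM in DMSO and at 5.49, 4.92 and 7.04 CPM in MB-3. Their blocked log2 fold changes were -0.46 and -0.55 (edgeR adjusted p of 4.83e-05 and 0.00029). These genes lie side by side on opposite strands of GRCm38 chromosome 8, Col4a1 from 11198423 to 11312826 and Col4a2 from 11312805 to 11449287, with exons that overlap, and reads of the overlap cannot be told apart without strand. In blocked fits that left out a letter, all 4 genes were called each time. The most abundant gene of the list, Lamc1, which encodes the laminin gamma chain, had means of 411 ± 29.1 CPM with vehicle and 437 ± 9.42 CPM with the inhibitor (SD, n = 3) and was not called in either fit.

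**Figure D4:**
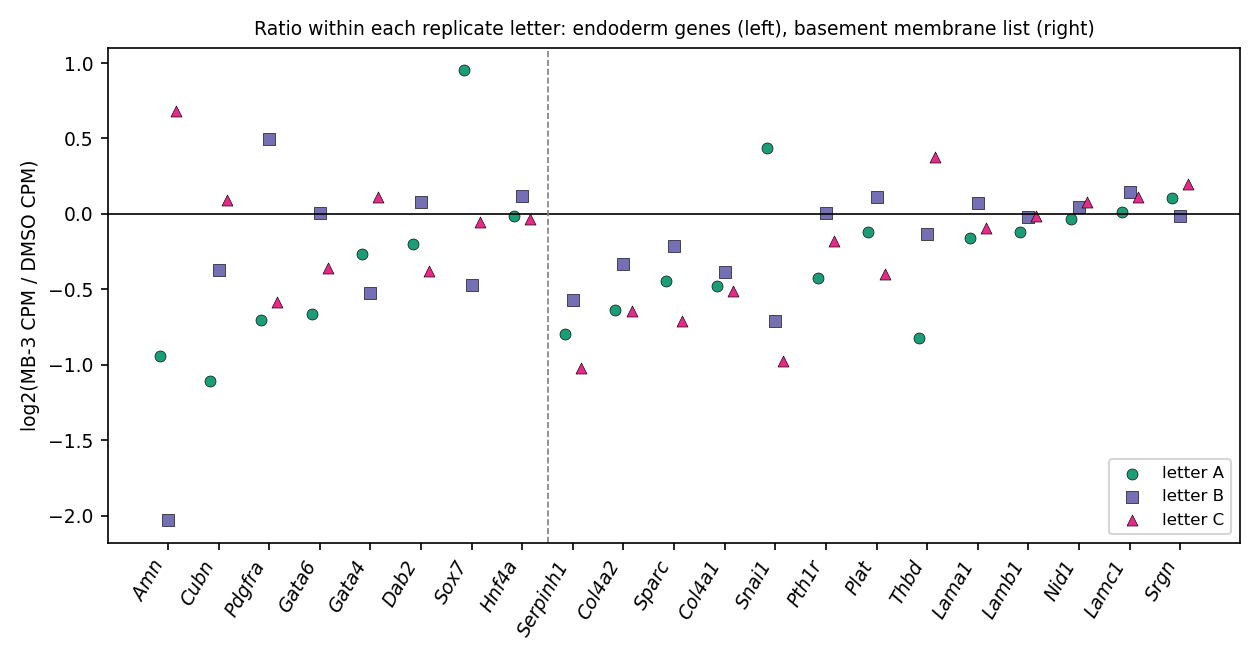
Log2 ratio of MB-3 to DMSO CPM within each replicate letter, for the 8 tested endoderm genes (left of the dashed line) and the 13 genes of the basement membrane list (right), with 1 symbol per letter. Serpinh1, Col4a2, Sparc and Col4a1, and by less Lamb1, are below 0 in all 3 letters, and each of the 8 endoderm genes is below 0 in 2 letters and above it in 1.

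Of 18 visceral endoderm genes, 13 were in the table and 12 were tested. Afp, Ttr, Apoa4, Slc2a2 and Fgb were not analysed here, and Apoa1 had a library without counts. With treatment only 0 were called by edgeR, 4 with an unadjusted p under 0.05 (10.9% of all genes tested). With the block 3 of the 12 were called, all lower in MB-3, against 3.9% of all genes tested: Cited1, a transcriptional co-regulator, Bmp2, a ligand that visceral endoderm secretes, and Rbp4, the retinol carrier. The median log2 fold change of the list was -0.18.

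Cited1 was measured at 1.35, 0.678 and 3.46 CPM in DMSO and at 0.362, 0.182 and 0.956 CPM in MB-3, lower with MB-3 in each letter, with a blocked log2 fold change of -1.87 (edgeR adjusted p = 2.27e-06). Bmp2 was measured at 0.499, 0.339 and 0.860 CPM in DMSO and at 0.121, 0.0228 and 0.420 CPM in MB-3 (blocked log2 fold change -1.70, edgeR adjusted p = 0.0089). Rbp4 was measured at 0.644, 0.678 and 0.545 CPM in DMSO and at 0.241, 0.251 and 0.327 CPM in MB-3 (blocked log2 fold change -1.19, edgeR adjusted p = 0.0289). Of these 3, only for Rbp4 did the groups not overlap. Over the list the groups did not overlap for 4 of the 12 tested, Rbp4, Fgg, Apoe and Trf, all lower in MB-3, against 15.6% of all genes tested in either direction. In the fits that left out a letter Cited1 was called each time, whereas Bmp2 was not called without letter B (edgeR adjusted p = 0.0768) and Rbp4 was not called without letter A or B (edgeR adjusted p of 0.158 and 0.187). Fgg, a fibrinogen chain, had a log2 fold change of -0.97 and was not called. Apoe, the most abundant of the list and an apolipoprotein that many cells make, stood at 916 ± 38.6 and 842 ± 32.9 CPM (SD, n = 3) and was not called.

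Of 7 genes of the anterior visceral endoderm, the signalling centre that patterns the epiblast, 5 were tested, and Cer1 and Dkk1 had libraries without counts. Lhx1, a homeobox factor also expressed in mesendoderm, was the 1 gene called with treatment only, against 0.205% of all genes tested. It was measured at 0.955, 0.638 and 1.55 CPM in DMSO and at 0.161, 0.0911 and 0.163 CPM in MB-3, with no overlap and a log2 fold change of -2.89 (edgeR adjusted p = 0.0243). The call was lost without DMSO library A or C or MB-3 library A or B (edgeR adjusted p of 0.0832, 0.0701, 0.17 and 0.165), while Lhx1 was called in every blocked fit that left out a letter. The block added Lefty1, a Nodal antagonist that ES cells also make, at a log2 fold change of -0.34 (edgeR adjusted p = 2.67e-05), and Otx2, a homeobox factor also expressed in epiblast, at 0.30 (edgeR adjusted p = 0.000131), which made 2 calls lower and 1 higher, against 3.9% and 3.22% of all genes tested. Otx2 had means of 52.2 ± 0.522 CPM with vehicle and 64.3 ± 3.34 CPM with the inhibitor (SD, n = 3), without overlap. Gsc had a log2 fold change of -0.22 and was not called. An exon of Otx2os1 lies on the other strand of Otx2, and Gm49154 overlaps it on the same strand.

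Ligands, receptors and adaptors that act upstream of the endoderm fate were expressed at higher levels per exon length than all 9 endoderm genes, between 1.64 CPM per kb for Fgfr2 and 53.3 CPM per kb for Fgf4 in DMSO. All 6 were tested, and edgeR called 0 with treatment only, 3 with an unadjusted p under 0.05 (10.9% of all genes tested). With the block 2 were called higher in MB-3, against 3.22% of all genes tested, and 1 lower, against 3.9%. Fgfr1, also an FGF receptor, stood at 7.66 CPM per kb in DMSO and was not called in either fit. Its blocked log2 fold change was -0.07 (edgeR adjusted p = 0.439). Fgfr2, an FGF receptor of the primitive endoderm, was measured at 17.6, 17.5 and 15.8 CPM in DMSO and at 21.5, 21.7 and 22.3 CPM in MB-3. Its blocked log2 fold change was 0.37 (edgeR adjusted p = 0.000296). Fgf4, its ligand, stood at 170 ± 18.4 and 191 ± 1.35 CPM (SD, n = 3), a blocked log2 fold change of 0.17 (edgeR adjusted p = 0.0227), and was not called without letter C (edgeR adjusted p = 0.356). Pdgfc, a ligand of Pdgfra, was lower in MB-3, at 21.5 ± 0.833 and 17.2 ± 0.657 CPM (SD, n = 3), a blocked log2 fold change of -0.32 (edgeR adjusted p = 0.00103). Pdgfa, the other ligand examined, had a log2 fold change of -0.12 and was not called. Groups did not overlap for Fgfr2, Fgf4, Pdgfc and Pdgfa, 4 of the 6 genes, against 15.6% of all genes tested. Exons of 6330403L08Rik, Gm16000 and Gm16159 lie on the other strand of Pdgfa, Pdgfc and Fgfr1. Fgfr2 shares exon positions with Ctbp2 on the same strand, so that reads there are not certain to be Fgfr2.

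Markers of other cell types were read from the same libraries. Their part in the values above was not tested. The 8 pluripotency genes summed to 2971 to 3172 CPM in DMSO and to 2997 to 3078 CPM in MB-3, with Esrrb the most abundant. The block called 1 of them lower, against 3.9% of all genes tested, Tfcp2l1, at a log2 fold change of -0.17 (edgeR adjusted p = 0.0142), and not without letter A or B (edgeR adjusted p of 0.301 and 0.0531). Klf4, Nanog and Esrrb had log2 fold changes of -0.15, -0.08 and -0.07 and were not called in either fit.

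The 8 mesendoderm genes summed to 26.9, 17.0 and 48.6 CPM in DMSO libraries A, B and C and to 10.8, 8.88 and 14.7 CPM in MB-3 libraries A, B and C. As for Dab2 and the collagen genes, C was the highest and B the lowest letter of DMSO. T, the mesoderm factor Brachyury and the most abundant of the list, had a log2 fold change of -1.89 with treatment only (edgeR adjusted p = 0.0611) and was called with the block (edgeR adjusted p = 1.47e-14). The block called Mixl1, Eomes and Lhx1 as well, all lower, so that 4 of 7 tested were called, against 3.9% of all genes tested called lower with the block, and Lhx1 alone with treatment only. Lhx1 and Gsc stand in both this list and that of the anterior visceral endoderm.

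Of 8 fibroblast genes 6 were tested, and Lum and Postn had libraries without counts. The sums were 9.66, 8.05 and 10.8 CPM in DMSO and 6.75, 6.92 and 6.72 CPM in MB-3, with Thy1 the most abundant. The block called Col1a1 and Col1a2, which encode type I collagen, lower in MB-3, at log2 fold changes of -1.33 and -1.28 (edgeR adjusted p of 0.00226 and 0.00012), against 3.9% of all genes tested called lower. The fit with treatment only called 0, 3 with an unadjusted p under 0.05 (10.9% of all genes tested). Pdgfrb and Col3a1 had log2 fold changes of -0.48 and -0.13 and were not called. Of 7 trophoblast genes 6 were tested, and the block called Tfap2c, the most abundant, at 0.17 (edgeR adjusted p = 0.0322), 1 call higher against 3.22% of all genes tested, but not in any of the fits that left out a letter. Hand1, Cdx2 and Krt7 had log2 fold changes of -0.85, -0.47 and -0.24 and were not called, and Elf5, with 1, 1 and 3 counts in DMSO and 0 in each MB-3 library, was too low to be tested. The list summed to 72.7, 68.6 and 70.4 CPM in DMSO and to 77.3, 75.0 and 78.7 CPM in MB-3.

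Endothelium and heart muscle also use Gata4, Sox7, Sox17 or Pdgfra, and their markers gave 0 calls by edgeR in either fit, from 2 and 3 genes tested. With treatment only 0 of these had an unadjusted p under 0.05, and with the block 1 of each list did, against 20.1% of all genes tested. Tek, the most abundant endothelial gene, and Actn2, the most abundant heart muscle gene, had log2 fold changes of 0.20 and 0.35, beside 0.00 for Kdr, -0.37 for Tnnt2 and 0.32 for Myh6. The endothelial list summed to 16.2, 13.5 and 16.0 CPM in DMSO and to 17.4, 15.6 and 19.0 CPM in MB-3. The heart muscle list summed to 3.68, 4.15 and 3.36 CPM in DMSO and to 4.50, 4.83 and 4.59 CPM in MB-3. Emcn was not analysed here, and Nkx2-5 had a library without counts. Of the other genes named from the lists, Gata5, Foxq1, Pth1r, Fgg, Pou5f1, Eomes, Krt7 and Myh6 overlap an exon on the other strand. Trf, Tfcp2l1 and Col3a1 overlap one on the same strand.

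The genes whose levels varied most like those of the endoderm genes over the 6 libraries were Plod2 (r = 0.998), Gm5809 (0.997), Pdhx (0.994), Phgdh (0.991) and Dlst (0.989). Pearson's r was taken to the mean centred log2(CPM + 0.1) profile of the 7 members with at least 10 counts on average, among 15958 genes. With 6 libraries and so many genes high values are found readily, and they are given as a description. In that profile DMSO library C was the highest at 0.17 and MB-3 library A the lowest at -0.22. Phgdh, which encodes an enzyme of serine synthesis, was measured at 69.3, 69.4 and 78.8 CPM in DMSO and at 55.4, 62.3 and 67.6 CPM in MB-3.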

How the data were processed

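PolyA RNA of DMSO and MB-3 cultures was sequenced as single-end reads, 3 libraries each. Trimmed reads were mapped by the authors with Bowtie (mm10), and GenomicAlignments gave the deposited table of raw exon counts for each Ensembl gene. Versions, annotation release and use of strand are not given in the sources used here. Of 30677 genes, 30540 were paired with symbols and GRCm38 positions in GENCODE M21; 0 columns were left unused and 0 rows named no gene. H3K9ac peak lists were not used, being on mm9 without an annotation of that build here. Per the labels the treatments were made in triplicate, but whether on separate starting cultures or days is not given, so p-values measure the spread between these libraries; libraries of 1 group differed by more than sampling noise.

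Counts were analysed with edgeR 4.0.16 in R 4.3.3. Genes passing filterByExpr (20027) were scaled by TMM and tested with glmQLFit and glmQLFTest, with treatment as the term, Benjamini-Hochberg adjustment over all of them, and a threshold of 0.05. CPM used TMM library sizes, and levels per kb were divided by the union of exons. Log2 fold changes had a standard error of 0.10 in the median over genes. With 3 libraries against 3, an exact permutation test cannot give a two-sided p below 0.1 and was not used. The alternative fit took the replicate letter, given by the labels, as a block. The labels do not say what a letter shares. Deviations from the group means correlated between same-letter libraries at 0.115 (A), 0.287 (B) and 0.232 (C), and at -0.23 to -0.0197 between others. Centring on group means makes such values offset one another, so the negative ones are not separate evidence of pairing. By chi-square per gene between counts, DMSO library A was nearer MB-3 library C (10.1) than MB-3 library A (13). DMSO libraries B and C were nearest their own letters among MB-3 libraries (8.87 and 12.5). The letters were taken to pair the libraries, and the blocked calls rest on that choice. Further alternatives were RLE and upper quartile scaling, no filter or a filter at 1 CPM in 3 libraries, DESeq2 1.42.0, limma-voom (limma 3.58.1) and each library left out. Blocked fits without a letter were added after the data were seen. The procedure was tested on simulated data, in which any letter effects were shared by same-letter libraries. Those runs took the pairing as given and do not bear on it.

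The 9 genes and 12 further lists (transcription factors, endocytosis, basement membrane, visceral and anterior visceral endoderm, upstream signals, pluripotent cells, mesendoderm, trophoblast, fibroblast, endothelium, heart muscle) were chosen with earlier results of these data known. Named were all 9 genes and, from each list, the genes called in either fit, the most abundant, and up to 4 with the largest log2 fold change among those tested, besides the 5 genes most like the 9. Other genes named were chosen after their values were seen. A result of the list of further transcription factors is not reported here. Promoter windows were read in Python 3.11.15 with pandas 2.3.3, and plots drawn with matplotlib 3.10.9.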

Additional observations from a re-analysis of the deposited data

How the results depend on the processing

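The number of endoderm genes called for MB-3 against DMSO was 0 under all alternatives run (with DESeq2 over 5 genes, as Gata6, Sox7 and Amn got no adjusted p), while the number over all genes moved. It was 41 with treatment only, 39 with RLE scaling, 25 with upper quartile scaling, 194 without a filter, 24 with at least 1 CPM in 3 libraries (which left only Dab2 of the 9 to test), 192 with DESeq2 and 18 with limma-voom. With the replicate block it was 1425, and 912 to 1037 when a letter was left out of the blocked fit (939 without A, 912 without B), where the basement membrane list kept 4 or 5 calls. Leaving out 1 library gave 0 (MB-3 A or MB-3 B) to 520 (DMSO B) calls, with 3 without DMSO A, 5 without DMSO C and 62 without MB-3 C. The replicate block changed the call of no endoderm gene. Sox7 changed sign, to 0.00824 with the block and 0.11 with limma-voom, and ranged from -0.43 to 0.30 when a library was left out. Hnf4a ranged from -0.0691 to 0.11, negative without DMSO B or MB-3 C, and Dab2 from -0.32 to 0.0146, positive without DMSO C. The other 5 tested genes kept a negative value, but with 1 library left out they ranged from -0.34 to -0.0668 (Gata4, nearest 0 without DMSO B), -0.54 to -0.22 (Gata6, lowest without MB-3 B), -0.68 to -0.00848 (Pdgfra, without DMSO B and DMSO C), -0.71 to -0.19 (Cubn, nearest 0 without DMSO A) and -1.19 to -0.18 (Amn, without MB-3 C and MB-3 B), and of 97 values of single genes 8 changed sign. The number of genes that differed between letters was 1570, 656 with DESeq2, 0 without a treatment term and 245 (without DMSO B) to 2314 (without MB-3 C) with a library left out. Of the endoderm genes, Dab2 alone was called for letter, 0 with DESeq2, 0 without a treatment term, and 0 (without any 1 DMSO library) to 1 with a library left out. The cause was not tested. Depth limits the list most for Sox17, Amn and Sox7, with fewer than 10 counts in 6, 3 and 1 of the libraries.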
